A study of Mus musculus with 15 samples.

Results

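The 38 genes described here are marks of microglia, the resident macrophages of the brain, and of other macrophages and monocytes. They were chosen as a list of known myeloid genes, with earlier results of these data known. All 38 were found among the 21889 genes of the deposited gene count table and passed the low-count filter. Msr1 and Ms4a7 passed it only through their MB libraries, so a difference in MB was built in for these 2. They were grouped by known role into 8 homeostatic genes, 11 genes of lineage and signalling, 3 complement genes, 4 antigen-presenting genes, 9 phagocytic genes and 3 macrophage and monocyte genes.

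Poly(A) RNA was sequenced from mouse cerebellar cells in 15 libraries, with 3 replicates in each of 5 groups. Of these, 12 came from cerebellar granule neuron precursors, a proliferating cell of the young cerebellum. The embryonic libraries (E15.5) are labelled Math1-GFP as genotype, and those of postnatal days 1, 7 and 14 (P1, P7, P14) are labelled WT. The remaining 3 libraries came from medulloblastoma cells (MB), a cerebellar tumour that can arise from these precursors, in mice labelled Ptch1 heterozygous, for which no age is stated. In every group the cells had been purified on Percoll, a density medium that does not select for a surface marker. Myeloid cells are thus not the labelled cell type of any library, and a mouse number per library is not given in the sources used here. Genotype and age cannot be told apart between E15.5 and P1, nor can tumour, genotype and age between MB and the precursors.

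Microglia arise from yolk sac precursors, settle in the brain before birth, and depend on signalling through the receptor Csf1r. In the healthy brain they carry a set of homeostatic surface molecules with which they sense nucleotides and chemokines, and they remove dying cells and synapses tagged by the complement protein C1q. In disease and tumours, brain myeloid cells can carry less of the homeostatic set and more of the molecules for lysosomal digestion, lipid handling and antigen presentation. Monocytes that enter the brain can also mature into macrophages, which differ from microglia by markers such as Ccr2 and Ms4a7.

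The gene counts of a library summed to between 12597472 and 43443132. Levels are given as CPM, in which a count is divided by its library size after TMM scaling, so that libraries can be compared. Atoh1, the transcription factor that defines granule neuron precursors, had a CPM of 10.9 to 138 in the precursor libraries and 236 to 322 in MB. Summed over 10 genes of the granule lineage, the CPM was between 3645 and 8080 in the 15 libraries. The library labelled P1 replicate 3 stood apart from the other P1 libraries in its oligodendrocyte genes, whose summed CPM was 4058 against 307.2 and 765.4. In 6 libraries (E15.5 replicates 1 and 3, P7 replicates 1 to 3 and MB replicate 1) the gene table held almost none of the transcript table's reads for Tsnax, whereas the other 9 held at least 92.4% of them, which splits the libraries into 2 sets by counting. Of the 34 myeloid genes with a matched transcript, 2 (H2-Aa and Ms4a7) had gene-to-transcript ratios that did not overlap between the sets, both by less than 0.5 on the log2 scale. Only libraries with at least 20 transcript counts of a gene were used for this. For both genes, MB replicate 1 alone thus stood for the set of 6 libraries. The share over all genes was not worked out. P7 lies wholly in 1 set and P1 and P14 wholly in the other, so for those steps the set and the age cannot be told apart.

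Myeloid transcripts were scarce at E15.5, more abundant from P1 to P14, and most abundant in MB. The summed CPM of the 38 genes was 18.04 to 55.2 at E15.5, 208.7 to 314.7 at P1, 136.5 to 318.1 at P7, 302.7 to 432 at P14, and 730.4 to 1598 in MB. The E15.5 libraries lay below, and the MB libraries above, every library of the other groups, whereas P1 and P7 overlapped. In these bulk samples, more myeloid cells and more RNA per cell cannot be told apart. By mean CPM, 37 of the 38 genes were lowest at E15.5, the exception being Aif1, which was lowest at P7. The highest mean lay in MB for 29 genes, at P14 for 8 and at P1 for 1 (Mrc1). The shares of all genes with their lowest or highest mean in each group were not worked out, so these counts are a description. The 8 with their highest mean at P14 were Cx3cr1, P2ry12, Tmem119, Siglech, Gpr34, Olfml3, Selplg and Csf1r, of which 7 are homeostatic genes.

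**Figure D1:**
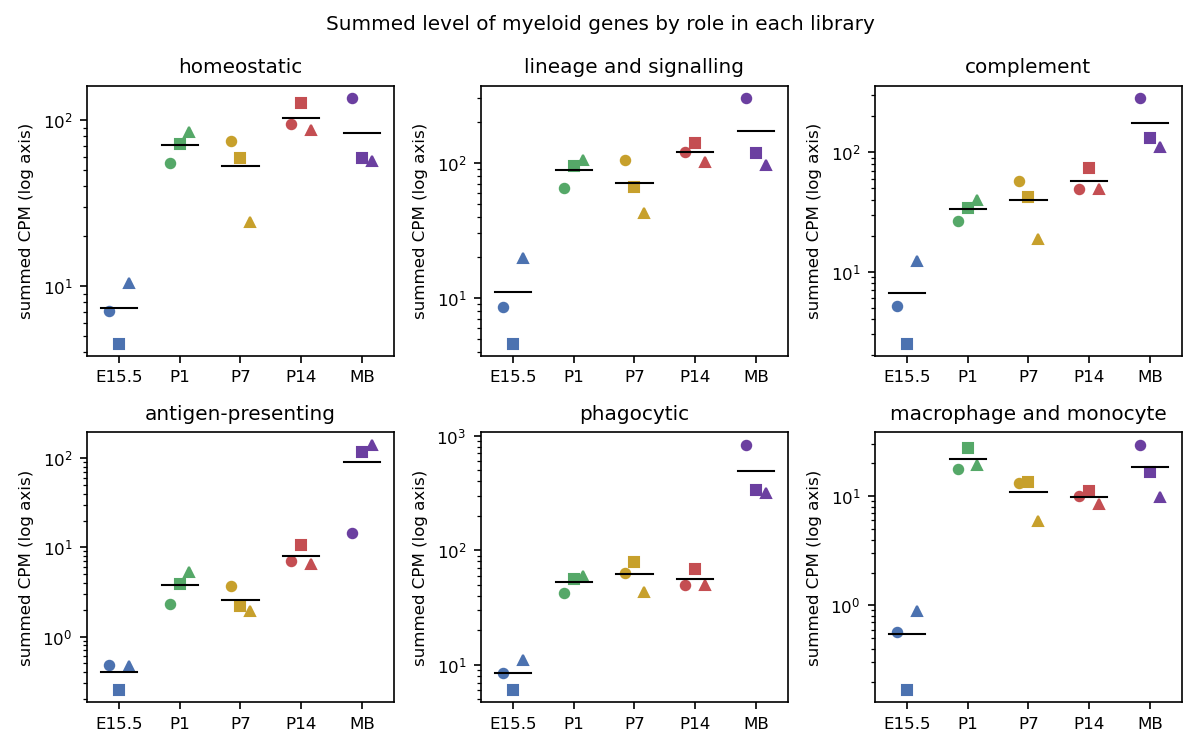
Summed CPM of each role's genes (log axis) in the 15 libraries by group, with circles, squares and triangles for replicates 1, 2 and 3 and a black bar for the group mean. Every role was lowest at E15.5, and the phagocytic sum was 49.7 to 68.51 at P14 and 314.5 to 834.2 in MB while the homeostatic sum overlapped between these groups.

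Differences were tested with edgeR's quasi-likelihood F-test over 15259 genes, and a gene was called when its adjusted p (Benjamini-Hochberg, over all genes tested) was under 0.05. From E15.5 to P1, 36 of the 38 myeloid genes were called higher and 0 lower, where 25.4% of all genes tested were called higher and 20.9% lower. The median log2 change of the 38 was 3.14, against 0.03 for all genes. Aif1 and Msr1 were not called. At an unadjusted p under 0.05 the numbers were 37 and 0, and DESeq2 called 37 higher and 0 lower. Without the library labelled P1 replicate 3, 33 were called higher. Leaving out E15.5 replicate 3 or P1 replicate 2 gave 32, the fewest for any 1 library left out. Within 1 counting set, where E15.5 is replicate 2 alone, the library with the fewest counts, 33 were called higher and 0 lower; this fit assumes that the lone library varies like the other groups. In the test for any difference among the 4 ages, 36 were called, again without Aif1 and Msr1, against 55.7% of all genes. Leaving out E15.5 replicate 1 gave 30 there, the fewest for any 1 library left out.

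Changes among the postnatal ages were few. At P7 against P1, 1 gene was called higher (Gpnmb) and 0 lower, against 1.4% and 1.74% of all genes, and the median log2 change was -0.27. DESeq2 gave 1 and 0 there, as did an unadjusted p under 0.05. At P14 against P7, 2 were called higher (Selplg and Tmem119) and 2 lower (Spp1 and Gpnmb), against 5.81% and 4.51% of all genes, with a median of 0.77. At P14 against P1, 0 were called higher and 1 lower (Spp1), against 3.63% and 5.31%, with a median of 0.43, and 4 and 2 passed an unadjusted p under 0.05. These counts are small and some depended on the fit. For P14 against P7, fitting only the groups compared gave 8 called higher and DESeq2 gave 4, and for P14 against P1 the same alternatives gave 5 and 3. Without P1 replicate 3, 4 genes were called higher at P14 than at P1.

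MB was compared with P7, the age at which the study set its tumours beside normal precursors, and with P14. Against P7, 24 myeloid genes were called higher and 1 lower (Siglech), where 13.7% of all genes were called higher and 20.7% lower, and the median log2 change was 1.85 against 0.02 for all genes. Msr1 and Ms4a7, which entered the test through MB, are among the genes called higher in both comparisons. Against P14, 21 were called higher and 2 lower (Siglech and Tmem119), where 22.9% and 27.2% of all genes were called, with a median of 1.22 against 0.01. Both comparisons share the MB libraries. MB replicate 1 differed from the other MB libraries in many of the genes. Without it, 20 were called higher and 3 lower against P7, and 15 higher and 4 lower against P14. Leaving out P7 replicate 3 gave 19 higher against P7, the fewest there for any 1 library left out. The summed CPM of the myeloid genes was 136.5 in P7 replicate 3, against 318.1 and 261.8 in P7 replicates 1 and 2. Within 1 counting set, MB replicate 1 alone against P7 gave 29 higher and 1 lower, with the spread taken from the other groups, and MB replicates 2 and 3 against P14 gave 18 higher and 5 lower.

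**Figure D2:**
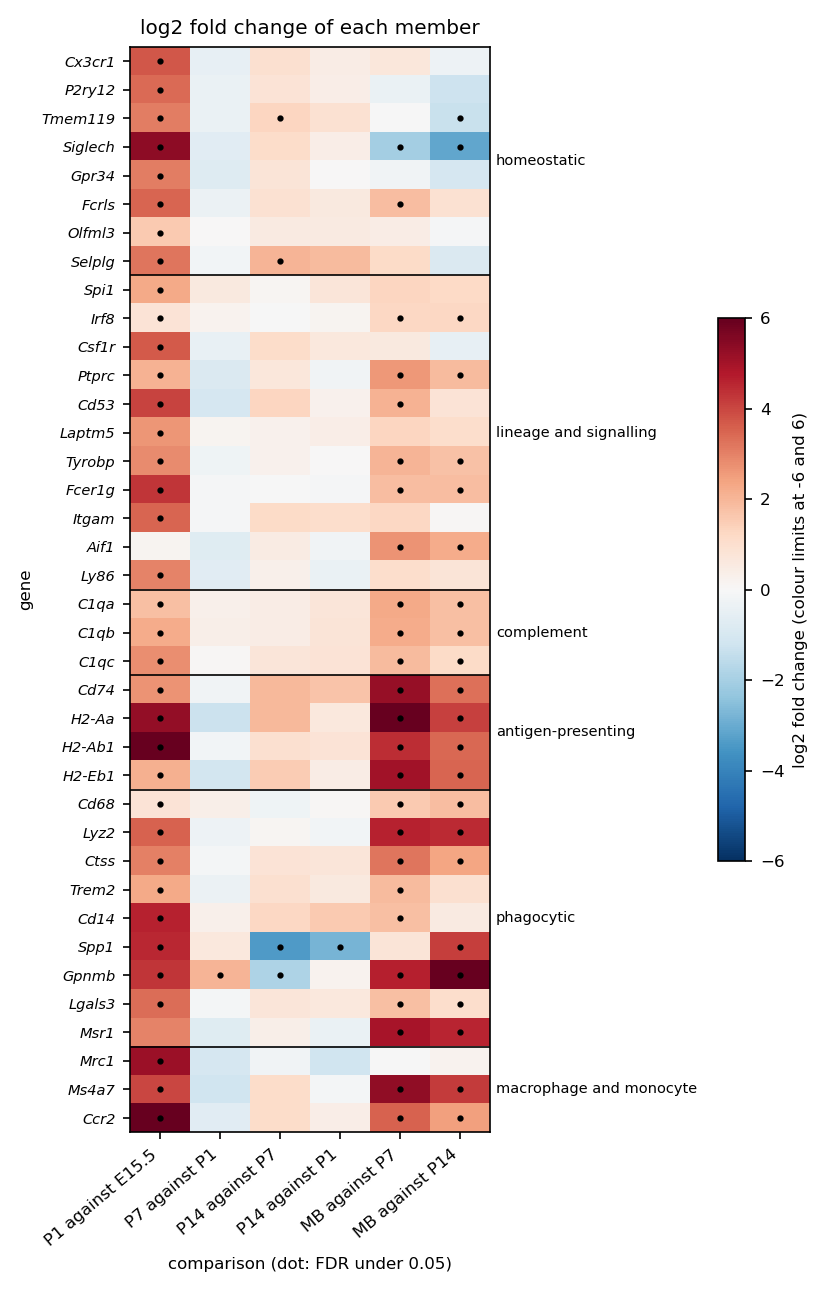
Fitted log2 change of each of the 38 genes (rows, grouped by role) in 6 comparisons (columns), as colour from blue (lower) to red (higher) with limits at -6 and 6, and a dot where the adjusted p was under 0.05. All 38 are above 0 in P1 against E15.5 (the values of H2-Ab1 and Ccr2, which had no count at E15.5, depend on the fit), and in MB against P14 the 4 antigen-presenting genes are at 3.32 or more while 7 of the 8 homeostatic genes are below 0.

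The homeostatic genes were called higher at P1, and few were called in MB. All 8 were called higher at P1 than at E15.5 (median log2 change 3.31), where 25.4% of all genes were called higher. In MB, 1 was called higher (Fcrls) and 1 lower (Siglech) against P7, with a median of 0.21, and 0 higher and 2 lower against P14 (Tmem119 and Siglech), with a median of -0.95. Over all genes, 20.7% and 27.2% were called lower in these comparisons, and the counts of 1 and 2 of 8 are no larger a share than that. Their summed CPM was 87.18 to 127.4 at P14 and 56.6 to 135.6 in MB.

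Cx3cr1, the receptor for the neuronal chemokine fractalkine, had a CPM of 1.18, 0.752 and 2.31 at E15.5, 15.2, 20.5 and 23.6 at P1, 21.2, 11.6 and 9.17 at P7, 31.1, 28.4 and 22 at P14, and 36.4, 14.5 and 16.1 in MB. The E15.5 libraries lay below all others, and MB overlapped both P7 and P14. The log2 change was 3.72 ± 0.47 (SE, n = 3 against 3) from E15.5 to P1, with an adjusted p of 2.12e-05 by edgeR. It was 0.67 against P7 and -0.28 against P14 in MB, neither called, with adjusted p of 0.224 and 0.584. MB replicate 1 alone, within its counting set, was at 1.37 against P7 (adjusted p = 0.0177, the lone library being assumed to vary like the other groups).

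P2ry12, a receptor for released nucleotides that guides microglial processes, stood at a CPM of 1.22, 0.668 and 2.5 at E15.5, 11.3, 15.3 and 22 at P1, 16.2, 17.1 and 3.43 at P7, 22.1, 26.5 and 16.6 at P14, and 20.5, 3.76 and 3.64 in MB. MB replicates 2 and 3 lay below every P14 library while replicate 1 lay within the P14 range. The gene was called higher at P1 (log2 change 3.38 ± 0.73, SE, edgeR adjusted p = 0.00172). In MB it was not called against P14 (-1.23, adjusted p = 0.133) or P7 (-0.41, adjusted p = 0.674). Without MB replicate 1 it was called lower in both, by edgeR, with log2 changes of -2.55 against P14 (adjusted p = 0.00284) and -1.73 against P7 (adjusted p = 0.0305). Within 1 counting set, MB replicate 1 alone stood at 0.73 against P7, with an adjusted p of 0.379. The ratio of P2ry12 to Cx3cr1 counts was 0.711 to 0.931 at P14 and 0.562, 0.26 and 0.226 in MB. At P7 it was 0.766, 1.48 and 0.374, so P7 replicate 3 lay within the MB range.

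Tmem119, a membrane protein used as a microglial mark, had a CPM of 0.436, 0.501 and 0.289 at E15.5, 2.15, 3.14 and 4.48 at P1, 3.36, 2.21 and 1.85 at P7, 5.7, 7.23 and 5.38 at P14, and 3.37, 2.27 and 1.64 in MB. P14 lay above every other group without overlap, and MB overlapped P7. It was called higher at P14 than at P7 (1.30 ± 0.35, SE, edgeR adjusted p = 0.0319), a call lost without any 1 of P7 replicates 2 and 3 and P14 replicates 1 to 3 (1.13 to 1.38, adjusted p from 0.074 to 0.136). It was called lower in MB than at P14 (-1.33 ± 0.35, adjusted p = 0.00571), and stayed so without MB replicate 1 (-1.63).

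Siglech, a sialic acid-binding lectin of microglia and plasmacytoid dendritic cells, was detected at 0, 0 and 0.184 CPM at E15.5, 2.58, 3.99 and 4.71 at P1, 3.54, 2.35 and 1.12 at P7, 4.45, 6.3 and 4.11 at P14, and 0.317, 0.318 and 1.12 in MB. MB lay below every P14 library, and its highest library lay level with the lowest of P7. It was called higher at P1, where the ratio of scaled counts was 39.7 (exact 95% interval 19 to 99.6, counting error only). In MB it was called lower than at P14 (log2 change -3.11 ± 0.62, SE, edgeR adjusted p = 0.000711) and than at P7 (-2.03 ± 0.61, adjusted p = 0.0175). The call against P7 was lost without P7 replicate 1 (-1.56) or MB replicate 2 (-1.70), and when only those groups were fitted (-1.98, adjusted p = 0.0621).

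Selplg, the ligand by which leukocytes bind selectins, was found at a CPM of 0.218, 0 and 0.446 at E15.5, 0.73, 2.13 and 4.82 at P1, 3.42, 2.57 and 0.924 at P7, 8.36, 11.8 and 8.32 at P14, and 6.47, 5.08 and 3.84 in MB. Its P14 libraries lay above all others. Levels were called higher at P14 than at P7 (log2 change 2.03 ± 0.61, SE, edgeR adjusted p = 0.0454), close to the threshold. That call was lost with the replicate block (adjusted p = 0.0718) and without any 1 of E15.5 replicate 1, P1 replicate 2, P7 replicates 1 to 3, P14 replicates 1 to 3 and MB replicate 2 (1.66 to 2.40, adjusted p from 0.0533 to 0.155).

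The remaining homeostatic genes were Gpr34, a lysophosphatidylserine receptor, Fcrls, an Fc receptor-like protein, and Olfml3, a secreted protein. Fcrls differed from the other genes of its role in MB. It reached 52.8, 22.5 and 19.9 CPM there against 12.5, 10.9 and 2.93 at P7, and was called higher (log2 change 1.85 ± 0.57, SE, edgeR adjusted p = 0.0199). Without MB replicate 1 (1.27) or P7 replicate 3 (1.44) that call was lost. Gpr34 was 8.61, 1.47 and 2 CPM in MB against 8.36, 9.68 and 6.25 at P14, not called (-1.02), and called lower without MB replicate 1 (-2.23, adjusted p = 0.0028). As a share of the summed homeostatic CPM, Fcrls made up 16.3% at P14 and 37.9% in MB, and P2ry12 21.1% and 11.1%.

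The lineage and signalling genes were also called higher at P1, in 10 of 11 cases (median log2 change 2.82), Aif1 being the exception. In MB, 6 of 11 were called higher against P7 (median 1.31) and 5 against P14 (median 1.19), and 0 were called lower in either. Over all genes, 25.4% were called higher at P1, and 13.7% and 22.9% in these MB comparisons. Irf8, Ptprc, Tyrobp, Fcer1g and Aif1 were called higher in both tumour comparisons, which share the MB libraries, and Cd53 against P7.

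Csf1r, the receptor for the growth factors Csf1 and Il34, was measured at a CPM of 2.66, 0.919 and 5.2 at E15.5, 26.6, 42.9 and 50.3 at P1, 50, 23.2 and 15.49 at P7, 63.3, 72.8 and 51.8 at P14, and 74.7, 33.8 and 23.5 in MB. MB overlapped P7 and P14. It was called higher at P1 (log2 change 3.69 ± 0.58, SE, edgeR adjusted p = 0.00014) and was not called in MB against P7 (0.57, adjusted p = 0.424) or P14 (-0.51, adjusted p = 0.424). Without MB replicate 1 the change against P7 was -0.047. Within 1 counting set, MB replicates 2 and 3 were called lower than P14 (-1.13, adjusted p = 0.0464). Its exons overlap those of Hmgxb3 in the transcript table, and in that table the change from E15.5 to P1 was 1.80, still called.

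Spi1, which encodes the myeloid master regulator PU.1, was at 0, 0.0835 and 0.63 CPM at E15.5, 1.37, 1.32 and 1.58 at P1, 2.69, 1.93 and 1.85 at P7, 1.92, 2.71 and 2.37 at P14, and 7.74, 4.62 and 3.72 in MB. All 3 MB libraries lay above every precursor library. The step at P1 was called (2.28 ± 0.65, SE, edgeR adjusted p = 0.0105). In MB it missed the threshold against P7 (1.31, adjusted p = 0.0781) and P14 (1.19, adjusted p = 0.0814), and both were called by DESeq2 (adjusted p = 0.0179 and 0.0269) and by edgeR without E15.5 replicate 1 (1.31 and 1.19) or E15.5 replicate 3 (1.34 and 1.26).

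Tyrobp, the adaptor DAP12 through which Trem2 signals, had a CPM of 0.218, 0.0835 and 1.86 at E15.5, 4.51, 6.94 and 6.41 at P1, 7.77, 4.53 and 2.66 at P7, 5.09, 8.05 and 5.05 at P14, and 33.6, 14.1 and 13.5 in MB. MB lay above all other libraries, and replicate 1 was the highest. The gene was called higher in MB against P7 (2.03 ± 0.62, SE, edgeR adjusted p = 0.0199) and P14 (1.75 ± 0.62, adjusted p = 0.0284). Without MB replicate 1 neither was called (1.46 and 1.19). The call against P14 was also lost with the replicate block (1.70, adjusted p = 0.0512), without P14 replicate 1 (1.64) or 3 (1.63), and that against P7 without P7 replicate 2 (1.96) or 3 (1.73).

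The other genes of this role differed in size of change. Ptprc, the leukocyte phosphatase CD45, was 26.5, 9.7 and 7.37 CPM in MB and 2.98 to 4.35 at P14, and was called higher (log2 change 1.90 ± 0.49, SE, edgeR adjusted p = 0.00433; 1.14 without MB replicate 1). Aif1, the actin-binding microglial mark Iba1, was 7.62, 2.69 and 3.12 CPM in MB and at most 1.58 in any precursor library. Its change against P14 was 2.22 ± 0.51 (adjusted p = 0.00197; 1.60 without MB replicate 1). Irf8, a transcription factor of myeloid development, already had 1.61 to 2.13 CPM at E15.5, and its step to P1 was 0.82 ± 0.29 (adjusted p = 0.0333). That call was lost with the replicate block (0.79), within 1 counting set (0.89), and without E15.5 replicate 1 (0.73) or 2 (0.79) or P1 replicate 2 (0.63). In MB, Irf8 was called higher against both P7 (1.23 ± 0.28) and P14 (1.25 ± 0.28), with libraries of 11.5, 7.91 and 6.96 CPM against 2.62 to 4.47 at the 2 ages. Fcer1g, a signalling chain of Fc receptors, was called higher in MB against P7 (1.85 ± 0.53) and P14 (1.86 ± 0.53), and Cd53, a leukocyte tetraspanin, against P7 (2.11 ± 0.61), but without MB replicate 1 none of these calls held (1.03, 1.04 and 1.08). Fcer1g against P7 was also lost without P7 replicate 1 (1.73) or 3 (1.58), and both Fcer1g (1.88, adjusted p = 0.0553) and Cd53 (2.13, adjusted p = 0.0759) lost that call when only those groups were fitted. Laptm5 (a lysosomal protein), Itgam (the complement receptor chain CD11b) and Ly86 (the partner MD-1 of a Toll-like receptor homologue) were called higher at P1 and not in MB.

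The complement genes C1qa, C1qb and C1qc encode the chains of C1q and lie next to each other on chromosome 4, within 136436044 to 136454718 on mm9. All 3 were called higher at P1 than at E15.5 (median log2 change 2.24) and in MB against P7 (2.24) and P14 (1.80). Over all genes, 25.4%, 13.7% and 22.9% were called higher in these comparisons. The RefSeq sequences of the 250 bases before the annotated start (GRCm38.p6, minus strand) are shown for C1qb (chr4:136886201-136886450) and C1qc (chr4:136892915-136893164). They were picked because both hold the letters AGGAAGT of a PU.1-type motif. A match is a description of letters and not of binding. Capitals mark the match, here on the opposite strand, and its first letter lies 53 bases before the start of C1qb and 195 before that of C1qc.

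C1qb: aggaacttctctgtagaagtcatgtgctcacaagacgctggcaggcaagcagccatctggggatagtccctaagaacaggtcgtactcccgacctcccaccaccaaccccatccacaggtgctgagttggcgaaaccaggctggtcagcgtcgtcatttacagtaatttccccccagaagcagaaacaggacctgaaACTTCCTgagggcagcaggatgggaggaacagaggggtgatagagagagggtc
C1qc: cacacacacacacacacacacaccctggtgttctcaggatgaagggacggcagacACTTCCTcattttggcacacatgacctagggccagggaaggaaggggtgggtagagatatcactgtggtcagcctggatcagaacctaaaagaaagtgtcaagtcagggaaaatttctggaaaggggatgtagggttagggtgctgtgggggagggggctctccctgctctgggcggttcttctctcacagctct

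Of the 38 genes, 27 had a promoter in the RefSeq table. AGGAAGT, searched on both strands, was in 8 of these (29.6%) and in 8.8% of the 27025 promoters of the same length. Besides C1qb and C1qc, the matches were in Fcrls, Lyz2, Mrc1, P2ry12, Ptprc and Spp1. C1qa, which was called in the same comparisons as C1qb and C1qc, was not among them, for want of a promoter or of a match.

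C1qa was present at a CPM of 2.22, 1.42 and 4.67 at E15.5, 7.17, 9.81 and 13.3 at P1, 18.6, 14 and 4.43 at P7, 16.4, 19.9 and 14.3 at P14, and 94.4, 48.3 and 35.5 in MB. C1qb was at 1.79, 0.585 and 4.73 at E15.5, 10.3, 12.3 and 13.2 at P1, 20.8, 17.2 and 7.24 at P7, 16.2, 27.9 and 17.4 at P14, and 127, 45.7 and 40.9 in MB. C1qc was at 1.13, 0.501 and 2.99 at E15.5, 9.27, 12.4 and 13.1 at P1, 18.3, 10.8 and 7.32 at P7, 17.1, 26.2 and 17.4 at P14, and 62.2, 37.8 and 34.6 in MB. For each chain the MB libraries lay above all precursor libraries, and the order of the group means was E15.5, P1, P7, P14, MB. Of the summed C1q CPM, C1qa made up 26.9% to 33.1% at P14 and 32% to 36.7% in MB.

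Against P7, the log2 changes in MB were 2.26 ± 0.50 for C1qa, 2.24 ± 0.56 for C1qb and 1.88 ± 0.45 for C1qc (SE, edgeR adjusted p = 0.00256, 0.00584 and 0.00401). Against P14 they were 1.81 ± 0.50, 1.80 ± 0.55 and 1.15 ± 0.44 (adjusted p = 0.00675, 0.0136 and 0.0396). C1qa kept its call in all 22 alternatives of both comparisons. Without MB replicate 1, C1qb (1.08) and C1qc (0.84) were not called against P14, nor were they without P14 replicate 1 (1.65 and 1.04) or 3 (1.69 and 1.05). C1qc also lost that call with the replicate block (1.12, adjusted p = 0.0646) and within 1 counting set (0.84).

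The antigen-presenting genes had the largest median change of the 6 roles in both tumour comparisons. H2-Aa, H2-Ab1 and H2-Eb1 encode chains of the class II molecules that display peptides to helper T cells, and Cd74 encodes the invariant chain that escorts them. All 4 were called higher in MB against P7 (median log2 change 5.15) and P14 (3.49), against 13.7% and 22.9% of all genes. Within MB the libraries differed widely. For H2-Aa (chr17:34287824-34288073, minus strand) and H2-Eb1 (chr17:34305617-34305866, plus strand) the 250 bases before the RefSeq start (GRCm38.p6) are shown, since class II genes are known for shared promoter boxes. Capitals mark GCAAC and the ATTGG that follows it 15 to 40 bases later, a pattern chosen after these sequences were seen. The first letters lie 81 and 48 bases before the start of H2-Aa, and 91 and 59 before that of H2-Eb1.

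H2-Aa: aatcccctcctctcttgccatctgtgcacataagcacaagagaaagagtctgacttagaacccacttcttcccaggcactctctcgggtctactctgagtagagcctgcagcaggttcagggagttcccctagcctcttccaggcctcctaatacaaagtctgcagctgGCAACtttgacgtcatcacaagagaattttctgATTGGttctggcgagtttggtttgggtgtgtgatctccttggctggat
H2-Eb1: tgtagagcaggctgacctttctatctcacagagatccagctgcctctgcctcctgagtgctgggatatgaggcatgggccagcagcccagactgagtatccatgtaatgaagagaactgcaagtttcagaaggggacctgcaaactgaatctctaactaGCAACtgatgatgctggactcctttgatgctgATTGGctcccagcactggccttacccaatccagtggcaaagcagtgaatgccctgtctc

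The spaced pair, searched on both strands, was in 1.18% of the 27025 promoters and in 3 of the 27 myeloid ones, the other being Cd68. ATTGG alone was in 37.5% of all promoters and in 12 of the 27.

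Cd74 had a CPM of 0.262, 0.0835 and 0.184 at E15.5, 0.472, 1.05 and 2.15 at P1, 1.64, 0.966 and 0.501 at P7, 4.38, 4.31 and 3.24 at P14, and 7.22, 51.8 and 60.5 in MB. H2-Aa stood at 0, 0 and 0.0263 at E15.5, 0.472, 0.814 and 0.754 at P1, 0.322, 0.166 and 0.347 at P7, 0.573, 1.96 and 0.635 at P14, and 3.13, 22.5 and 28.4 in MB. In both genes every MB library lay above every precursor library, and MB replicate 1 lay far below MB replicates 2 and 3.

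H2-Ab1 had no count in any E15.5 library, then a CPM of 0.558, 1.01 and 1.17 at P1, 1.05, 0.607 and 0.809 at P7, 1.28, 2.29 and 1.27 at P14, and 2.58, 24.6 and 26.7 in MB. H2-Eb1 was at 0.218, 0.167 and 0.263 at E15.5, 0.815, 0.969 and 1.21 at P1, 0.672, 0.442 and 0.27 at P7, 0.742, 1.99 and 1.34 at P14, and 1.67, 19.1 and 25.9 in MB. For H2-Eb1, MB replicate 1 lay within the P14 range, and for H2-Ab1 it lay just above it. MB replicate 1 was thus the lowest MB library in all 4 class II genes and the highest in all 3 C1q chains.

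**Figure D3:**
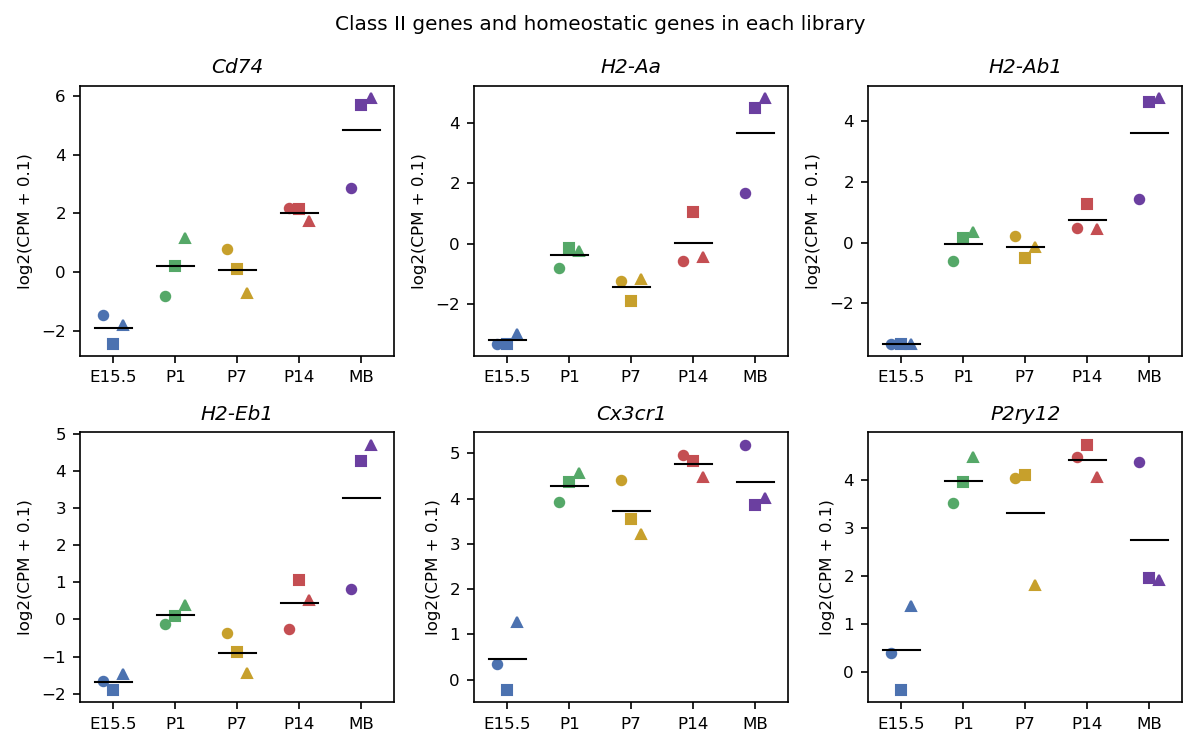
The log2 of CPM + 0.1 for the 4 antigen-presenting genes and the homeostatic genes Cx3cr1 and P2ry12 in the 15 libraries by group, with circles, squares and triangles for replicates 1, 2 and 3 and a black bar for the mean on that scale. In MB the circle of replicate 1 lies below the other replicates for Cd74 (7.22 against 51.8 and 60.5 CPM) and above them for P2ry12 (20.5 against 3.76 and 3.64 CPM).

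Against P14, the log2 changes in MB were 3.32 ± 0.65 for Cd74, 4.08 ± 0.68 for H2-Aa, 3.47 ± 0.67 for H2-Ab1 and 3.51 ± 0.69 for H2-Eb1 (SE, edgeR adjusted p = 0.000593, 0.000158, 0.000758 and 0.000626). Against P7 they were 5.25 ± 0.72, 6.02 ± 0.77, 4.44 ± 0.71 and 5.05 ± 0.76. All 8 calls held in every alternative run, leaving out any library included. Size depended on MB replicate 1. Within 1 counting set, that library alone gave 2.77, 3.49, 1.64 and 1.81 against P7, and the other MB libraries gave 3.82, 4.58, 3.98 and 4.04 against P14.

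The antigen-presenting step at birth rests on few reads. All 4 genes were called higher at P1 than at E15.5 (median log2 change 3.97, or 3.58 with H2-Ab1 at its bound), against 25.4% of all genes. For H2-Ab1, with 70 counts at P1 and 0 at E15.5, the level was at least 22.5-fold higher, taking 3 counts over the E15.5 group as the floor. H2-Aa had 52 counts against 1, a ratio of 50.2 (exact 95% interval 8.62 to 2020, counting error only). Cd74 rose by 2.67 ± 0.85 (SE, edgeR adjusted p = 0.0187), a call lost without E15.5 replicate 3 (2.58, adjusted p = 0.0821) or P1 replicate 3 (1.99, adjusted p = 0.0986). H2-Eb1 was near the threshold (2.12 ± 0.83, adjusted p = 0.0485), and lost its call with the replicate block (adjusted p = 0.0505) and without any 1 of E15.5 replicates 1 to 3, P1 replicates 1 to 3, P7 replicates 1 to 3, P14 replicates 2 and 3 and MB replicate 2 (1.95 to 2.26, adjusted p from 0.0505 to 0.122). Between P7 and P14, Cd74 differed by 1.92 without a call (adjusted p = 0.0704), and was called by DESeq2 (adjusted p = 0.0166), with only those groups fitted (adjusted p = 0.00854) or without MB replicate 1 (1.92, adjusted p = 0.0115).

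Other genes of antigen presentation were taken from a list of 9, of which 8 were tested. In MB against P7, 3 of the 8 were called higher and 1 lower, and against P14 1 higher and 2 lower, where 22.9% and 27.2% of all genes were called, so the counts against P14 are no larger than the general share. H2-DMb1, a chain of the molecule that loads peptides onto class II, was called higher in both (log2 change 3.68 and 1.33). Tap1, a peptide transporter for class I, was called lower in both (-0.93 and -1.48). Ciita, the transactivator of class II genes, was not called in either (0.12 and -0.73). Its CPM was 2.89 to 3.74 at P14 and 0.317, 2.52 and 2.88 in MB, where replicate 1 was the lowest. At E15.5, where the class II genes had few or no counts, it was at 2.53, 1.59 and 1.39. Ciita was not called in the test among the 4 ages (edgeR adjusted p = 0.339).

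The phagocytic genes cover uptake and digestion in lysosomes. From E15.5 to P1, 8 of the 9 were called higher (median log2 change 3.34), against 25.4% of all genes. In MB, 8 were called higher against P7 (median 1.92), all but Spp1, and 7 against P14 (median 2.37), all but Trem2 and Cd14. Over all genes, 13.7% and 22.9% were called higher in these comparisons. Both counts include Msr1, which passed the low-count filter only through MB. None was called lower in either tumour comparison.

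Lyz2, a lysozyme of macrophages and granulocytes, was measured at 0.611, 0.251 and 1.39 CPM at E15.5, 8.5, 10.7 and 10.8 at P1, 10.6, 9.46 and 4.39 at P7, 8.66, 11.2 and 6.92 at P14, and 349, 121 and 127 in MB. The lowest MB library lay far above the highest precursor library. The log2 change was 4.60 ± 0.50 against P7 and 4.48 ± 0.50 against P14 (SE, edgeR adjusted p = 5.29e-06 and 4.25e-06), and 3.92 and 3.80 without MB replicate 1. Per kilobase of transcript, Lyz2 had the highest mean level of the genes with a transcript length in MB (151 CPM per kb), ahead of Ctss (72.4) and C1qb (65.4), whereas C1qb (18.8), C1qc (16.8) and C1qa (16.2) led at P14.

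Gpnmb, a lysosomal glycoprotein of lipid-laden macrophages, showed the largest change of the 38 genes between MB and P14. It had a CPM of 0.0872, 0.0835 and 0 at E15.5, 0.258, 1.24 and 1.21 at P1, 3.33, 5.35 and 2.7 at P7, 1.08, 1.27 and 0.836 at P14, and 130, 83.1 and 80.7 in MB. P7 lay above P1 and P14 without overlap, and MB lay above all. The log2 change in MB was 6.52 ± 0.51 against P14 and 4.68 ± 0.46 against P7 (SE, edgeR adjusted p = 1.78e-07 and 2.02e-06), kept in every alternative. The gene was called higher at P7 than at P1 (2.06 ± 0.45, adjusted p = 0.0284) and lower at P14 than at P7 (-1.84 ± 0.44, adjusted p = 0.021). The first was lost when only those groups were fitted (2.07, adjusted p = 0.0849) and without P1 replicate 1 (1.64) or 2 (2.35) or P7 replicate 1 (2.16) or 2 (1.73). The second was lost without P7 replicate 2 (-1.51) or any 1 of P14 replicates 1 to 3 (-1.85, -1.99 and -1.70).

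Spp1, the secreted matrix protein osteopontin, followed a course of its own after birth. It was at 0.698, 0.501 and 0.446 CPM at E15.5, 11.9, 13.7 and 12.8 at P1, 13.6, 31 and 14.6 at P7, 1.55, 2.23 and 1.8 at P14, and 44.8, 33.6 and 22.5 in MB. The P14 libraries lay above those of E15.5 and below those of every other group, and MB overlapped P7. It was called higher at P1 than at E15.5 (4.54 ± 0.40, SE, edgeR adjusted p = 9.14e-07), and lower at P14 than at P7 (-3.40 ± 0.35, adjusted p = 0.00121) and P1 (-2.78 ± 0.35, adjusted p = 0.000666). In MB it was called higher against P14 (4.17 ± 0.36, adjusted p = 4.61e-07) but missed the threshold against P7 (0.77, adjusted p = 0.0747). It passed there by DESeq2 (adjusted p = 0.0489), within 1 counting set (1.17, adjusted p = 0.0311), and without P7 replicate 2 (1.25) or MB replicate 3 (0.99). Spp1 is also expressed by cells other than macrophages, and its source was not tested.

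Ctss, a lysosomal protease that trims the class II invariant chain, was at 0.829, 0.501 and 2.55 CPM at E15.5, 7.72, 11.8 and 15.2 at P1, 15.8, 11.3 and 4.62 at P7, 16.2, 25 and 15.7 at P14, and 210, 43.5 and 40.6 in MB. All MB libraries lay above the others, with replicate 1 highest. Levels were called higher in MB against P7 (3.21 ± 0.66, SE, edgeR adjusted p = 0.00139; 1.99 without MB replicate 1) and P14 (2.37 ± 0.64, adjusted p = 0.00595). The call against P14 was lost without MB replicate 1 (1.15, adjusted p = 0.067).

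Cd68, a lysosomal membrane glycoprotein, was the phagocytic gene with the most reads at E15.5. Its CPM was 5.76, 4.26 and 4.57 at E15.5, 7.25, 9.58 and 9.31 at P1, 8.65, 13 and 11.4 at P7, 8.53, 8.71 and 10.1 at P14, and 54.3, 22.8 and 21.5 in MB. MB lay above all precursor libraries, and E15.5 lay below them. In MB it was called higher against P7 (1.58 ± 0.32, SE, edgeR adjusted p = 0.00118) and P14 (1.85 ± 0.32, adjusted p = 0.000218), kept in every alternative, with 1.01 and 1.29 without MB replicate 1. The smaller step from E15.5 to P1 (0.84 ± 0.32, adjusted p = 0.0442) lost its call with the replicate block (adjusted p = 0.0555) and without any 1 of E15.5 replicates 1 to 3, P1 replicates 2 and 3, P7 replicates 1 and 3 and P14 replicates 1 to 3 (0.74 to 0.98, adjusted p from 0.0516 to 0.129). The ratio of Cd68 to Csf1r counts was 0.879 to 4.64 at E15.5, 0.185 to 0.273 at P1 and 0.173 to 0.734 at P7. It was 0.12 to 0.194 at P14 and 0.675 to 0.916 in MB, so MB overlapped E15.5 and P7.

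Trem2, the lipid-sensing receptor that signals through Tyrobp, stood at 0.218, 0.251 and 1.5 CPM at E15.5, 2.96, 3.29 and 4.33 at P1, 4.38, 2.73 and 1.23 at P7, 4.11, 7.23 and 4.75 at P14, and 13.7, 8.23 and 9.81 in MB. MB lay above all other libraries. In MB its call was higher against P7 (1.92 ± 0.54, SE, edgeR adjusted p = 0.0123; lost without P7 replicate 3, 1.57) but not against P14 (0.98, adjusted p = 0.136). Against P14 it passed when only those groups were fitted (0.99, adjusted p = 0.0341) or without E15.5 replicate 3 (1.04, adjusted p = 0.0328).

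Lgals3, the sugar-binding galectin-3, was found at 0.218, 0.167 and 0.42 CPM at E15.5, 2.15, 3.92 and 2.98 at P1, 2.83, 2.68 and 2.81 at P7, 4.55, 5.73 and 3.71 at P14, and 17.7, 6.55 and 5 in MB. MB replicate 3 lay within the P14 range. Against P7 the gene was called higher in MB (1.81 ± 0.42, SE, edgeR adjusted p = 0.00367; 1.06 without MB replicate 1). Against P14 it was close to the threshold (1.06 ± 0.41, adjusted p = 0.0441). That call was lost in 11 of 22 alternatives, among them without MB replicate 1 (0.31, adjusted p = 0.432), and without any 1 of E15.5 replicate 1, P1 replicate 3, P7 replicates 2 and 3 and P14 replicates 1 to 3 (0.92 to 1.24), with the replicate block (1.01, adjusted p = 0.0764), with only those groups fitted (1.08) and within 1 counting set (0.31).

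The last 2 phagocytic genes are Cd14, a co-receptor for bacterial lipopolysaccharide, and Msr1, a scavenger receptor. Cd14 was called higher in MB against P7 (1.79 ± 0.54, SE, edgeR adjusted p = 0.0182), where its libraries stood at 4.88, 15.7 and 5.72 CPM against 3.6, 2.92 and 1.04. That call was lost with only those groups fitted (1.83), within 1 counting set (0.93), and without MB replicate 2 (1.06) or P7 replicate 3 (1.43). Msr1 stayed at or below 0.31 CPM in every precursor library and was 10.4, 1.27 and 1.6 in MB. Its ratio of scaled counts was 26.8 against P7 (exact 95% interval 15.7 to 49.4) and 21.2 against P14 (13 to 36.8). Both differences were called, also without MB replicate 1 (log2 changes of 3.30 and 2.94). However, Msr1 passed the low-count filter only through MB, so a difference there was built in and these calls do not test it. From E15.5 to P1, Msr1 was not called (2.98, adjusted p = 0.0765), and passed by DESeq2 (adjusted p = 0.033) and without MB replicate 1 (2.98) or 2 (2.98).

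**Figure D4:**
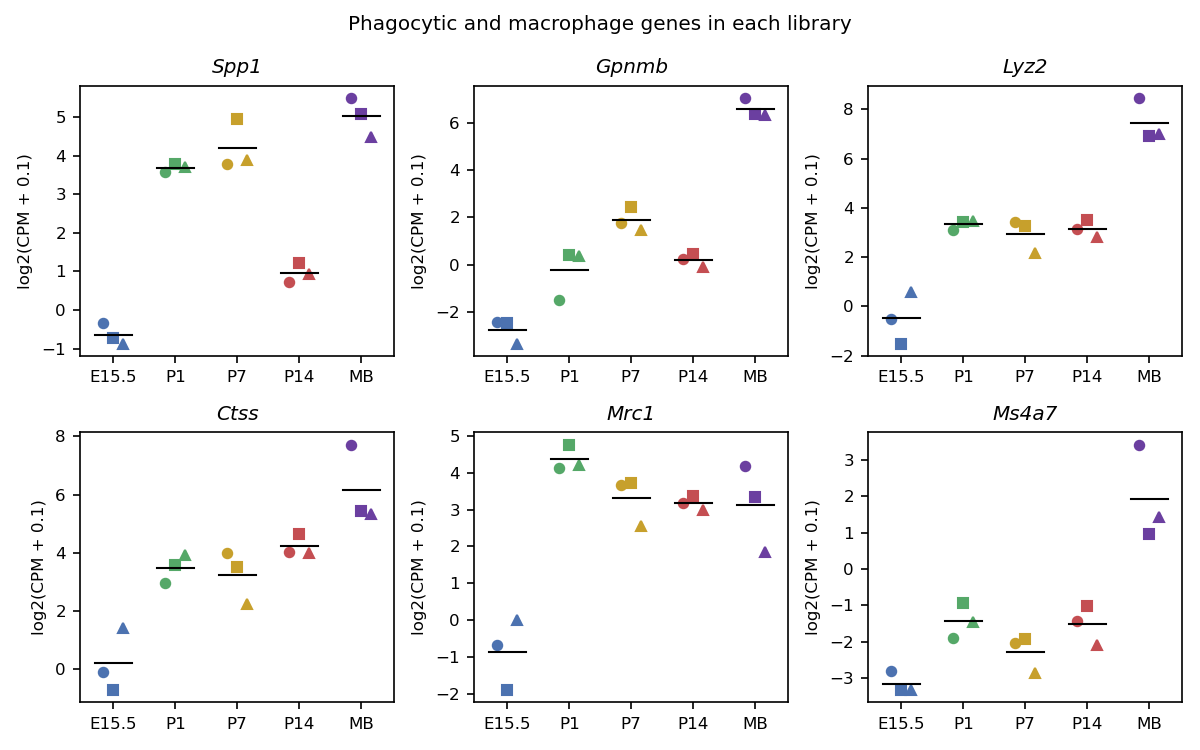
The log2 of CPM + 0.1 for 4 phagocytic genes and the macrophage genes Mrc1 and Ms4a7 in the 15 libraries by group, with circles, squares and triangles for replicates 1, 2 and 3 and a black bar for the mean on that scale. The MB libraries of Gpnmb (80.7 to 130 CPM) and Lyz2 (121 to 349 CPM) lie above all precursor libraries, and Spp1 drops at P14 (1.55 to 2.23 CPM).

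The 3 macrophage and monocyte genes did not move as 1 group. All were called higher at P1 than at E15.5 (median log2 change 5.14, or 4.0 with Ccr2 at its bound), against 25.4% of all genes. In MB, Ccr2 was called higher against both P7 and P14 while Mrc1 was not called. Ms4a7 was called too, but it passed the low-count filter only through MB.

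Mrc1, the mannose receptor of macrophages at brain borders, was at 0.523, 0.167 and 0.893 CPM at E15.5, 17.4, 27.1 and 18.5 at P1, 12.7, 13.1 and 5.74 at P7, 8.97, 10.3 and 7.89 at P14, and 18, 10 and 3.48 in MB. The P1 libraries lay above those of P7 and P14, and MB overlapped both these ages. Its step from E15.5 to P1 was 5.14 ± 0.61 (SE, edgeR adjusted p = 1.17e-05). From P1 to P14 it differed by -1.22 without a call (adjusted p = 0.123), and was called when only those groups were fitted (adjusted p = 0.0205). The ratio of Mrc1 to Cx3cr1 counts was 0.785 to 1.32 at P1 and 0.289 to 0.362 at P14.

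Ms4a7, a membrane protein of border and monocyte-derived macrophages, was at 0.0436, 0 and 0 CPM at E15.5, 0.172, 0.426 and 0.264 at P1, 0.146, 0.166 and 0.0385 at P7, 0.27, 0.392 and 0.134 at P14, and 10.5, 1.83 and 2.6 in MB. MB lay above every precursor library. In MB the ratio of scaled counts was 35.7 against P7 (exact 95% interval 20.2 to 69.7) and 16.5 against P14 (11 to 25.8), and the log2 changes were 5.30 ± 0.76 and 4.19 ± 0.70 (SE, edgeR adjusted p = 6.83e-05 and 0.000152). Without MB replicate 1 they were 4.13 and 3.03, still called, though a difference in MB was built in by the filter. The step at P1 rested on 22 counts against 1, a ratio of 21.2 (3.43 to 876), and its call was lost without E15.5 replicate 3 (adjusted p = 0.105) or P1 replicate 2 (adjusted p = 0.0574) and within 1 counting set (adjusted p = 0.0898).

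Ccr2, the chemokine receptor of blood monocytes, had no count at E15.5, then a CPM of 0.3, 0.426 and 0.603 at P1, 0.497, 0.166 and 0.154 at P7, 0.742, 0.573 and 0.468 at P14, and 1.15, 4.88 and 3.68 in MB. Here MB replicate 1 was the lowest MB library, the reverse of Ms4a7, and all 3 lay above every precursor library. The log2 change in MB was 3.54 ± 0.60 against P7 and 2.45 ± 0.55 against P14 (SE, edgeR adjusted p = 0.000454 and 0.00245). Within 1 counting set, MB replicate 1 alone was at 2.03 against P7. At P1 the level was at least 10.9-fold higher than at E15.5, with 3 counts over the E15.5 group as the floor.

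The roles were compared by the ratio of their summed CPM within a library. Reads of these genes from other cells enter the ratio too, and their share was not tested. The ratio of phagocytic to homeostatic genes was 1.2, 1.33 and 1.05 at E15.5, 0.765, 0.787 and 0.703 at P1, 0.843, 1.32 and 1.76 at P7, 0.527, 0.538 and 0.574 at P14, and 6.15, 5.65 and 5.56 in MB. MB lay above every precursor library, and P14 lay below all others. Left without Lyz2 and Gpnmb, the ratio was 2.62, 2.22 and 1.89 in MB and 0.423 to 0.485 at P14. The genes were chosen with earlier results known, so these ratios are a description with no test.

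The ratio of antigen-presenting to homeostatic genes split the tumours. It was 0.108, 1.99 and 2.5 in MB and 0.074 to 0.0828 at P14, so MB replicate 1 lay near the precursors and the other MB libraries far above. Complement over homeostatic genes was 2.09, 2.22 and 1.96 in MB and 0.526 to 0.581 at P14, with the MB libraries close to each other. The tumour libraries thus had like ratios for phagocytic and complement genes and unlike ones for class II.

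**Figure D5:**
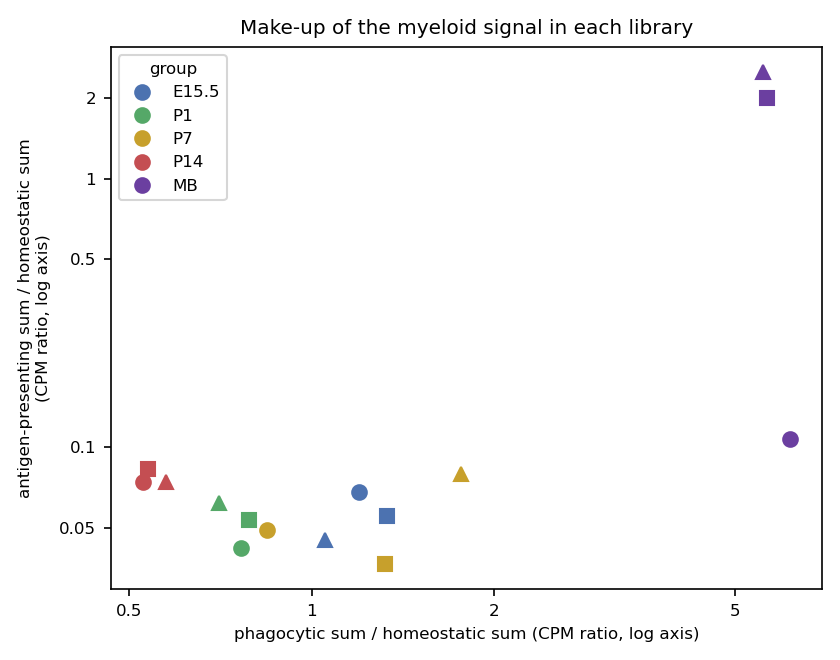
Ratio of summed antigen-presenting to homeostatic CPM against the ratio of summed phagocytic to homeostatic CPM in the 15 libraries (both axes log), coloured by group, with circles, squares and triangles for replicates 1, 2 and 3. The 3 MB libraries lie at 5.56 to 6.15 on the phagocytic axis, and 1 of them (0.108) lies near the precursors on the antigen-presenting axis.

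Over all genes, 25.4% were called higher and 20.9% lower at P1 against E15.5, 13.7% and 20.7% in MB against P7, and 22.9% and 27.2% in MB against P14, and the counts from other lists are to be read against these shares. Other genes of the pathways and other cell types were read from lists. Of 30 other microglial genes, 27 were called higher and 0 lower at P1 against E15.5, 16 higher and 1 lower in MB against P7, and 8 higher and 2 lower in MB against P14, where the 8 of 30 are close to the general share. Slc2a5, a fructose transporter of microglia, was called lower in MB in both (log2 change -3.58 and -3.42). Unlike most of the myeloid genes, it was not called in the test among the 4 ages (edgeR adjusted p = 0.932). The source of its reads was not tested. Hk2 and Sall1, also called higher in MB, are expressed by other cells too.

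Of 15 tested partners in phagocytosis and the lysosome, 6 were called higher and 1 lower in MB against P7, and 5 higher and 2 lower against P14. Cst7, an inhibitor of lysosomal proteases, had 13.8, 1.42 and 2.04 CPM in MB and at most 0.211 in any precursor library (log2 change 6.45 against P7 and 5.22 against P14), but it passed the low-count filter only through MB, so this difference was built in. Itgax, the integrin chain CD11c, and Clec7a, the receptor Dectin-1, were called higher too, at 3.34 and 2.67 against P7. Apoe, a lipid carrier, was called higher at P1 than at E15.5 (4.48), and was not called in MB. Itgax and Clec7a are known marks of microglia that respond to disease.

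Of 11 ligands that act on microglia, 9 were called higher and 1 lower at P1 against E15.5, among them Il34 (3.09) and Csf1 (2.69), the ligands of Csf1r. In MB, 4 were called lower and 1 higher against P7, and 8 lower and 0 higher against P14. Il34 was 0.516, 1.56 and 1.32 CPM in MB and 6.49 to 8.74 at P14 (log2 change -2.69), and Csf1 was 14.4 to 19.6 against 22.1 to 27.3 (-0.58), both called. Cx3cl1, the ligand of Cx3cr1, was called higher at P14 than at P7 (1.92) and lower in MB than at P14 (-1.34), and Cd47, which restrains phagocytosis, was called lower in MB than at P14 (-2.84).

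Cell types other than microglia moved with the same comparisons. From E15.5 to P1, all 8 endothelial, all 8 pericyte and fibroblast, all 8 oligodendrocyte and all 6 astroglial genes were called higher, and the summed endothelial CPM was 13.83 to 38.74 at E15.5 and 422.9 to 635.6 at P1. No gene of these 4 lists was at 0 in all E15.5 libraries. The part of such cells in the P1 step was not tested. In MB against P14, 8 endothelial, 8 pericyte and fibroblast, 6 oligodendrocyte and 4 astroglial genes were called lower, and 1 oligodendrocyte gene was called higher (Olig2, log2 change 1.19). Against P7 the numbers called lower were 8, 7, 6 and 4, with Olig2 (1.21) and the astroglial gene S100b (2.12) called higher. The summed endothelial CPM was 21.02 to 38.11 in MB and 798.2 to 827.4 at P14.

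Border macrophages, neutrophils and monocytes, and lymphocytes could share genes with the 38. Of the border macrophage genes, 8 of 8 tested were called higher at P1. In MB, 0 of the 8 were called higher and 3 lower against P7, where 20.7% of all genes were called lower. Against P14, 2 of the 8 were called lower, no larger a share than the 27.2% of all genes. Lyve1 and Pf4 were called lower in both, with Lyve1 at 0.24 to 0.415 CPM in MB and 1.25 to 1.97 at P14. Of 5 neutrophil and monocyte genes tested, 3 were called higher in MB against P7 and 3 higher and 1 lower against P14. Their summed CPM, over 10 genes, was 8.646 to 36.73 in MB and 4.754 to 5.817 at P14, with Elane at 0 in MB. MB replicate 1 had 11.3 CPM of S100a8 and 15.3 of S100a9, calprotectin chains abundant in neutrophils, against 0.806 and 0.64, and 1.88 and 1.52, in MB replicates 2 and 3. The same library was the highest in MB for Lyz2 and Ctss, and for the summed CPM of the 38 genes (1598 against 778.8 and 730.4). Its homeostatic sum was also the highest (135.6 against 59.33 and 56.6), and its antigen-presenting sum the lowest (14.6 against 118 and 141.4). The part of neutrophils in these values was not tested. Of 12 lymphocyte genes, 4 were tested, with 2 called higher and 0 lower in MB against P7 and 1 higher and 2 lower against P14, and their summed CPM was 4.324 to 10.51 in MB and 4.349 to 5.425 at P14.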

How the data were processed

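Percoll-purified cells were lysed in Trizol, and poly(A) RNA was made into TruSeq v2 libraries and sequenced on an Illumina HiSeq instrument, per the labels' protocols. The authors deposited raw read counts per gene (HTSeq format) and per transcript, and Trimmomatic, TopHat, StringTie, HTSeq and the mm9 build are named, without versions, in the submitters' processing notes. The strand setting is not given in the sources used here, so reads of overlapping genes, such as Csf1r with Hmgxb3 and Itgam with Gm49368, cannot be told apart. The 5 summary lines of the gene table name no gene and were left out, and 39.5% to 55.4% of a library's records were counted in genes. A deposited table per start site was not used here. Symbols were matched for 20358 of 21889 genes.

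Counts were analysed with edgeR 4.0.16 in R 4.3.3: filterByExpr (minimum count 10, minimum total 15), TMM scaling, 1 mean per group over all 15 libraries, 10 residual degrees of freedom, the quasi-likelihood F-test, and Benjamini-Hochberg adjustment over 15259 genes. The SE is the log2 change divided by the square root of F. Alternatives were DESeq2 1.42.0, RLE scaling, no filter, the transcript table, a replicate block, only the groups compared, each library left out and, added after seeing the data, fits within 1 counting set. The test was also run on counts simulated with changes set in MB alone and with no counting sets. That run cannot show how the test performs on these data. Nothing in the labels says that replicates came from separate animals, so p-values measure the spread between these libraries, which may be technical. Positions are on mm9, and promoter sequences are RefSeq's on GRCm38.p6, with no conversion. Intervals and floors cover counting error only, as reads are not independent molecules.

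The members, the lists and their roles were chosen with earlier results of these data known. All 38 members could be named. Values in every library are given for 23 fixed members and any other among the 2 largest called changes in a direction. From other lists, up to 4 called genes with the largest change, and 8 fixed genes, could be named, of which 1 is not reported here.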

Additional observations from a re-analysis of the deposited data

How the results depend on the processing

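Of 106 pairs of a gene and a comparison followed, none changed with RLE scaling or without the filter, and none of the 95 that the transcript table could give changed there. DESeq2 added 6 calls and lost 0, the replicate block lost 7 and added 0, and fitting only the groups compared lost 6 and added 7. Numbers called that moved by over 1.5 times were, for P7 against P1 higher, 0 with only the groups compared. For P14 against P7 higher they were 1 with the transcript table, 1 with the replicate block, 8 with only the groups compared and 4 with DESeq2. For P14 against P1 higher they were 5 with only the groups compared and 3 with DESeq2, and lower 2 with only the groups compared. For MB against P7 lower it was 0 with only the groups compared, and for MB against P14 lower 5 within 1 counting set.

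Leaving out 1 library in turn, the numbers called higher ranged from 32 to 37 (P1 against E15.5), 0 to 1 (P7 against P1), 0 to 5 (P14 against P7), 0 to 4 (P14 against P1), 19 to 27 (MB against P7) and 15 to 24 (MB against P14). Those called lower ranged from 0 to 0 at the first 2 steps, 1 to 2 (P14 against P7), 1 to 1 (P14 against P1), 0 to 3 (MB against P7) and 2 to 4 (MB against P14), and the 4-age test gave 30 to 37. In 2 cases the direction turned, and the cause was not tested. P2ry12 in MB against P7 was 0.73 within 1 counting set, and Csf1r in MB against P7 was -0.047 without MB replicate 1, where leaving out 1 library gave up to 1.22.

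Whether same-numbered replicates were handled together is not given in the sources used here, and the correlations did not pair them by the rule used (every pair over 0.1). Of 30 pairs of same-numbered libraries, 6 had a correlation of their deviations over 0.1, and the range was -0.312 to 0.332. With the replicate block, 33 genes were called higher at P1 than at E15.5, and 18 in MB against P14.

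The lowest depth, 12597472 counts in E15.5 replicate 2, limits the genes at or near 0 counts there.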
